A study of Mus musculus with 24 samples.

Results

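Acyl-CoA thioesterases split a fatty acyl-CoA into a free fatty acid and coenzyme A (CoA), the reverse of what acyl-CoA synthetases do. In brown adipose tissue (BAT), which burns fatty acids to make heat, they lie between the supply of fatty acids and their oxidation. Their enzymes fall into a type I group (Acot1 to Acot6), encoded by a cluster of neighbouring genes, and a type II group with a different protein fold, to which Acot7 to Acot13 belong. The best known of them in BAT is Acot11, also named Them1 or brown fat inducible thioesterase, a long-chain acyl-CoA thioesterase that carries a lipid-binding START domain.

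The genes described here were Acot1, Acot2, Acot4, Acot7, Acot8, Acot9, Acot11, Acot12 and Acot13, chosen by symbol. Of these 9 genes, 8 had a row among the 12615 genes of the count table and all 8 passed the filter on low counts, while Acot8 was not analysed here. Acot11 led the choice because of its rise in the cold in mice labelled Cre-. The values of these genes in that comparison are therefore a description, and nothing is read from where they fall beside the test's threshold.

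BAT RNA of 24 mice was sequenced as tags from the 3′ end of each transcript, with 6 mice in each of 4 groups. Mice labelled BATdKO carried floxed alleles of both TBLR1 and TBL1 (TBLR1 fl/fl;TBL1 fl/fl) and the tamoxifen-inducible Ucp1CreERT2, a Cre driven by the brown adipocyte gene Ucp1, whereas mice labelled Cre- carried the same floxed alleles without it. All mice, controls included, received tamoxifen, and housing at the test temperature began 3 weeks later, either directly at 30°C for 4 days or, after a stepwise decrease, at 8°C for 6 days. The labels describe females, while the paper's legend for these mice describes males and its text a shorter time at 8°C. The age at tamoxifen is given in years in the labels and is not used here.

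Several features of the libraries bear on every result. The deleted genes went against the labels. At 8°C, Tbl1xr1, which encodes TBLR1, had 33.8 to 44.3 CPM (counts per 1e6, scaled to the normalized library size) in the 6 libraries labelled BATdKO and 18.2 to 24.6 in those labelled Cre-, a log2 fold change of 0.92 (standard error, SE, 0.17, adjusted p = 0.00348, edgeR's quasi-likelihood test). Tbl1x, which encodes TBL1, had 42.4 to 63.6 CPM and 38.7 to 43.8 CPM there, with overlap (0.39, SE 0.10, adjusted p = 0.0633, edgeR). At 30°C both were higher under the BATdKO label (0.35 for Tbl1x, 0.44 for Tbl1xr1), neither with an adjusted p under 0.1 in edgeR. The position of the deleted exons was not given in the sources used here, so these 3′ tags need not report on the deletion. Genotypes below are those of the labels. Whether the genotype labels are reversed was not tested, and a reversal would turn the sign of every difference between the labels. The 12 hepatocyte markers took 3.04% to 4.76% of the counts in every library, more than the 8 brown adipocyte markers (0.0459% to 0.307%). Albumin (Alb) had 5686 to 14393 CPM and Ucp1, the uncoupling protein that defines brown adipocytes, 28.9 to 2076 CPM. The part of this liver-type RNA in the results was not tested. In the 30°C groups Cre- mouse m6 had the highest Ucp1 (548 CPM) and Tbl1xr1 (38.6 CPM) of its group and BATdKO mouse m6 the lowest (84.7 and 17.0 CPM). Whether these 2 libraries were exchanged was not tested, so the counts of thioesterase and pathway genes called, in all and per list, were repeated without both. Total counts ranged from 699703 in Cre- mouse m4 at 30°C to 11527643, and library numbers ran in separate blocks for the 2 temperatures, so that temperature and block cannot be told apart.

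**Figure D1:**
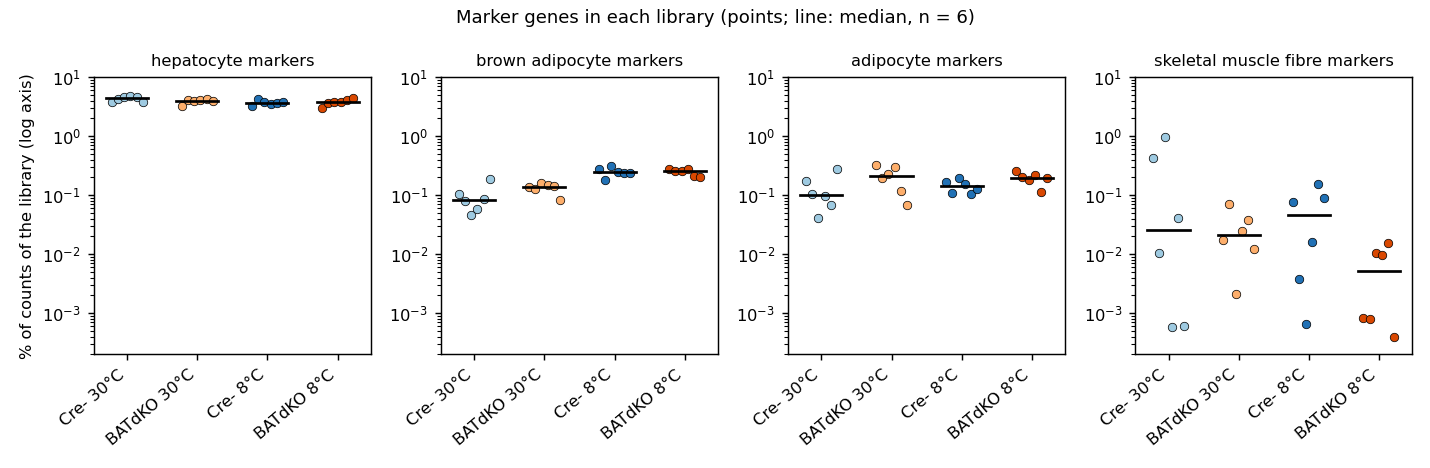
Share of each library's counts (percent, log axis) taken by 4 lists of marker genes in the 4 groups, with a point for each mouse and a line at the median. Hepatocyte markers lay between 3.04% and 4.76% in all libraries, brown adipocyte markers did not overlap between 30°C and 8°C in mice labelled BATdKO, and adipocyte markers overlapped between all groups.

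To show what lies upstream of the 3 genes on which the results turn, the 250 bases before a RefSeq transcription start (GRCm38.p6) are given 5′ to 3′ on the gene's own strand, with the CCAAT box (CCAAT, or ATTGG on the other strand) and the half-site of the cAMP response element (TGACG, or CGTCA on the other strand) in capitals. The windows are chr4:106805008-106805257, minus strand, for Acot11, chr12:83987611-83987860, plus strand, for Acot2 and chr12:84009252-84009501, plus strand, for Acot1.
Acot11: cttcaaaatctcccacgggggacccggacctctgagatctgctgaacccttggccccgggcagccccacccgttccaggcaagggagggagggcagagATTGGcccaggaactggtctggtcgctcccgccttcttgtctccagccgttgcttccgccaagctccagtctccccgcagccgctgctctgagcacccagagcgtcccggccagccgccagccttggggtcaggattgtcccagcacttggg
Acot2: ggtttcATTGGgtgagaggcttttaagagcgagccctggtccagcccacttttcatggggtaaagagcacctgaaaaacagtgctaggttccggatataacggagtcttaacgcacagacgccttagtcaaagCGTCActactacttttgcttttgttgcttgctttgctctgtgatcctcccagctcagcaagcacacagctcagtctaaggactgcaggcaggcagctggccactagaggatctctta
Acot1: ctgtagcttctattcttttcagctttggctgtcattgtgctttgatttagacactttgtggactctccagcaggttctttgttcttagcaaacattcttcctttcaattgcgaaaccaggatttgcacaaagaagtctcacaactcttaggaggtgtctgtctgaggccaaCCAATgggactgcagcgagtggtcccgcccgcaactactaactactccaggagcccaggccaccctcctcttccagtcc

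The Acot11 window held a reversed CCAAT box from 152 to 148 bases before the start. Acot2 held one from 244 to 240 bases and a reversed cAMP half-site from 117 to 113 bases before its start, and Acot1 held a forward CCAAT box from 79 to 75 bases before its start. Of 32851 such windows over all genes, 33.8% held a CCAAT box and 17.8% the cAMP half-site. The full cAMP response element TGACGTCA (1.55% of windows), the nuclear receptor repeat AGGTCANAGGTCA (0.0335%) and its half-site AGGTCA (14%) were searched on both strands and had no match in these 3 windows, which says only that these letters are not there. The TGACG half-site also lies inside TGACGTCA, and AGGTCA inside the repeat. RefSeq lists a second, downstream start of Acot11, whose window held none of these motifs, and 3′ tags do not tell transcripts from the 2 starts apart. Windows were found for 7 of the 8 genes.

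Acot11 rose in the cold in mice labelled BATdKO. The rise that led its choice was that of mice labelled Cre-, but earlier results of these data were known at the choice. The test in mice labelled BATdKO is therefore not taken as independent of the choice. At 30°C these mice had 8.89, 3.04, 7.06, 4.67, 2.54 and 2.55 CPM. At 8°C they had 30.1, 44.0, 39.0, 38.6, 20.0 and 20.7 CPM. Every cold mouse lay above every warm mouse, with means of 32.1 ± 10.1 CPM and 4.79 ± 2.65 CPM (SD, n = 6). The log2 fold change was 2.81 (SE 0.31, 6.99-fold, edgeR adjusted p = 1.25e-06). Acot11 was the 1 gene of the 8 called in this comparison, in which 7.07% of all 12485 genes tested were called and 2.99% did not overlap between the groups. Leaving out each mouse in turn gave 2.68 to 3.06 on the log2 scale, and leaving out both m6 mice gave 2.69, with Acot11 called each time.

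In mice labelled Cre-, in which its rise had chosen it, Acot11 had 7.63, 7.73, 1.76, 5.47, 4.83 and 4.12 CPM at 30°C. At 8°C it had 56.7, 37.1, 81.1, 66.0, 44.6 and 43.8 CPM. The groups again did not overlap, and the fitted difference was 3.35 on the log2 scale (SE 0.30, 10.2-fold). The lowest depth behind these values was a count of 4 in Cre- mouse m4 at 30°C. The 5.47 CPM of that mouse is correspondingly uncertain.

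The marker lists place this rise beside the rest of the tissue. The summed brown adipocyte markers also differed between temperatures, with 0.0832% to 0.162% of counts at 30°C and 0.207% to 0.282% at 8°C in mice labelled BATdKO, and 0.0459% to 0.189% and 0.178% to 0.307% in mice labelled Cre-. Ucp1 carried this difference. Without it, the other 7 markers overlapped between temperatures, with 0.0737% to 0.122% and 0.0813% to 0.112% in mice labelled BATdKO and 0.0427% to 0.134% and 0.0797% to 0.109% in mice labelled Cre-. Single markers among them went both ways. Cidea, a lipid droplet protein of brown adipocytes, had a lower median in the cold in mice labelled BATdKO (350 against 637 CPM). In mice labelled Cre- its median was higher in the cold (500 against 361 CPM). Ppargc1a was higher in every cold mouse labelled BATdKO (31.4 to 57.1 CPM against 17.0 to 26.0 CPM). The summed general adipocyte markers overlapped as well, with 0.0672% to 0.324% at 30°C and 0.112% to 0.257% at 8°C in mice labelled BATdKO. Of these, Adipoq, which encodes adiponectin, was lower in every cold BATdKO mouse (80.4 to 142 CPM against 185 to 268 CPM), without overlap. In mice labelled Cre- it overlapped (117 to 183 CPM against 134 to 398 CPM). Fabp4, on the same list, had a higher median in the cold under both labels. Its medians were 1660 against 1506 CPM in mice labelled BATdKO and 1053 against 571 CPM in mice labelled Cre-. Hepatocyte markers overlapped in mice labelled BATdKO, at 3.24% to 4.20% and 3.04% to 4.36%, and so did macrophage, endothelial, erythroid and muscle markers. Progenitor markers did not overlap in mice labelled BATdKO, with 0.0144% to 0.0182% at 30°C and 0.0106% to 0.0139% at 8°C, nor did the 1 nerve marker in the table, with 0.00106% to 0.00133% and 0.000639% to 0.000978%. In mice labelled Cre- both of these overlapped. The part of cell composition in the rise of Acot11 was not tested, and in bulk tissue fewer cells of a type and less RNA per cell cannot be told apart.

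Between the labelled genotypes at 8°C, Acot11 had a mean of 32.1 ± 10.1 CPM in mice labelled BATdKO and 54.9 ± 16.5 CPM in mice labelled Cre- (SD, n = 6), and 4 of the 6 Cre- mice lay above every BATdKO mouse. The log2 fold change of -0.76 (SE 0.25, 1.69-fold lower) did not pass the threshold (adjusted p = 0.185 from edgeR's test). At 30°C the difference was -0.22 (SE 0.34, adjusted p = 0.905). The Cre- mice of both comparisons are those in which Acot11 was chosen. The cold difference in mice labelled BATdKO minus that in mice labelled Cre- was -0.54 on the log2 scale (SE 0.43). It contains the rise that chose the gene and is given without a test.

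**Figure D2:**
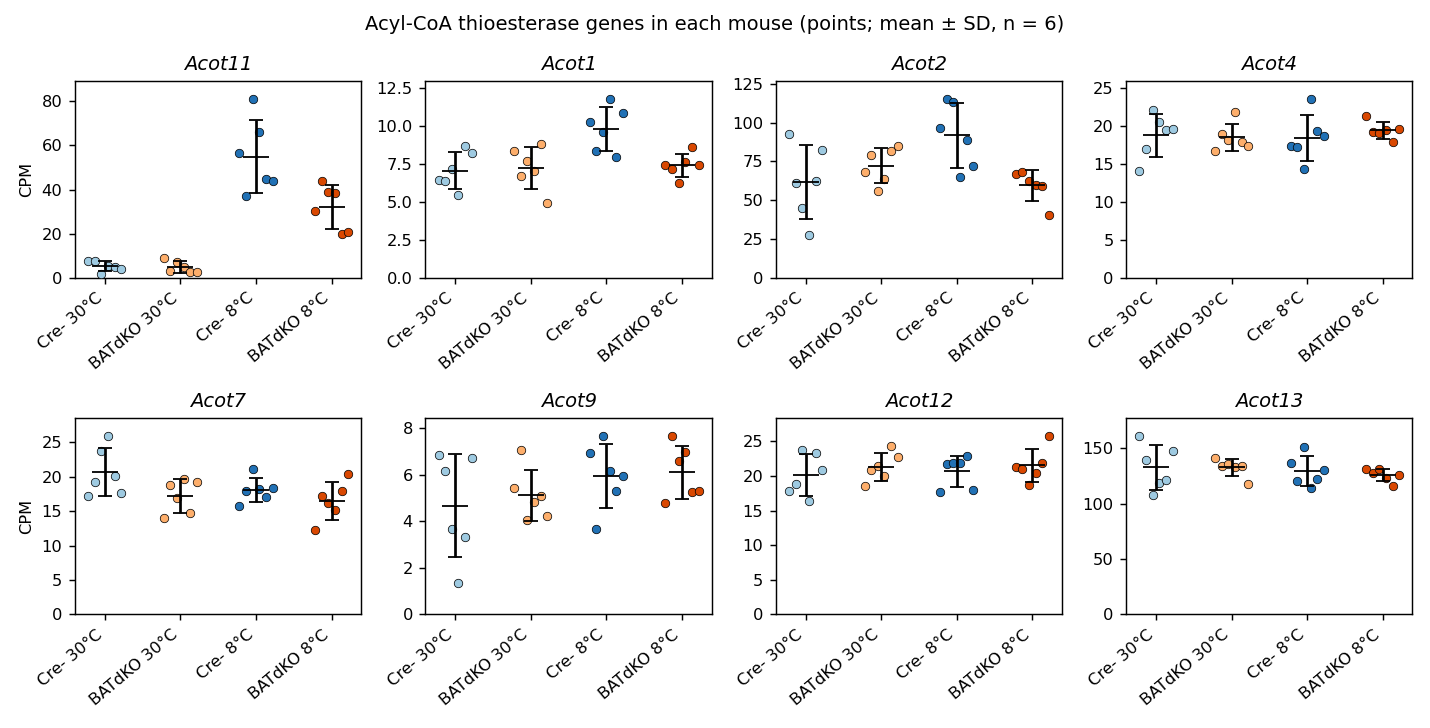
CPM of the 8 genes in each mouse, with 1 panel per gene and linear axes from 0 (points are mice, bars the mean ± SD, n = 6). Acot11 at 8°C (20.0 to 81.1 CPM) did not overlap 30°C (1.76 to 8.89 CPM) under either label, Acot1 and Acot2 were highest on average in Cre- mice at 8°C, and the other 5 genes overlapped between all groups.

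Acot1 and Acot2 encode closely related type I enzymes for long-chain acyl-CoA, the first in the cytosol and the second in the mitochondrial matrix, and both are known targets of the fatty acid receptor PPARα. Their genes lie in the type I cluster on GRCm38, Acot2 at chr12:83987861-83993873 and Acot1 at chr12:84009490-84018371, both on the plus strand. Of the 50-base stretches of the Acot1 transcript, 23.7% also occur in Acot2, but none of the 451 in its last 500 bases, where 3′ tags lie.

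Acot2 had lower values under the BATdKO label at 8°C. It had 64.6 to 115 CPM (median 92.4) in mice labelled Cre- and 40.1 to 68.3 CPM (median 61.1) in mice labelled BATdKO, and 5 of the 6 Cre- mice lay above every BATdKO mouse. The log2 fold change was -0.62 (SE 0.18, 1.54-fold lower), which narrowly missed the threshold of 0.1 (adjusted p = 0.11, edgeR). Acot2 was called at 8°C by DESeq2 (-0.62, adjusted p = 0.0421), in an edgeR fit of the 8°C groups alone (-0.62, adjusted p = 0.0112) and without both m6 mice (-0.63, adjusted p = 0.0688). It was not called with RLE normalization, without the filter on low counts or with robust dispersion. Of the 24 edgeR fits that left out a mouse, 6 called it (adjusted p from 0.0605 to 0.277 over all 24). What moved the call was not tested.

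The fitted cold difference of Acot2 had opposite signs under the labels. In mice labelled BATdKO it had 56.0 to 84.9 CPM (median 73.6) at 30°C and a log2 fold change in the cold of -0.28 (SE 0.18, adjusted p = 0.457 from edgeR's test). In mice labelled Cre- it had 27.3 to 92.5 CPM (median 61.8) at 30°C and a fitted difference of 0.50 (SE 0.18). Warm and cold mice overlapped under each label. The interaction of -0.79 (SE 0.26, adjusted p = 0.383, edgeR) was not past the threshold.

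Acot1, at a lower level than Acot2, had 7.97 to 11.8 CPM (median 9.94) in Cre- mice and 6.24 to 8.63 CPM (median 7.42) in BATdKO mice at 8°C. Of the Cre- mice, 4 of 6 lay above every BATdKO mouse. The log2 fold change was -0.41 (SE 0.14, 1.33-fold lower) and was not past the threshold (adjusted p = 0.182, edgeR). In the cold it differed by 0.04 (SE 0.14, adjusted p = 0.935 from edgeR's test) in mice labelled BATdKO and by 0.44 (SE 0.13, no test) in mice labelled Cre-. The interaction was -0.40 (SE 0.19, adjusted p = 0.62 from edgeR's test). At 30°C neither gene differed past the threshold, with -0.01 (SE 0.14) for Acot1 and 0.16 (SE 0.18) for Acot2 on the log2 scale. Counted together as a single row, Acot1 and Acot2 differed by -0.60 at 8°C (SE 0.16, adjusted p = 0.0717 from edgeR's test), on the called side of the threshold.

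Across the 8 genes, 0 were called between the labels at 8°C by edgeR, against 1.82% of all genes. An unadjusted p under 0.05 was found for 3 (Acot11, Acot1 and Acot2, all lower under the BATdKO label), against 9.24% of all genes. Acot11 was chosen by its rise in these Cre- mice, so its place among the 3 is a description only. DESeq2 called 1 of the 8, the fit of the 8°C groups alone 3, and the fit without both m6 mice 2. The share of all genes called in these 3 fits is not given here, so nothing is read from the size of these counts. None of the 8 had groups that did not overlap, against 1.95% of all genes. In the interaction 0 were called by edgeR, against 0.0961% of all genes, and 0 by DESeq2. There 1 gene (Acot2) had an unadjusted p under 0.05, against 8.05%. For Acot11 the interaction contains the rise that chose it, so nothing is read from its place in these counts. At 30°C edgeR called 0 of the 8, against 0.0% of all genes (1303 of which had an unadjusted p under 0.05), and DESeq2 0, and 0 had an unadjusted p under 0.05. In the cold in Cre- mice, the comparison that chose Acot11, 2 genes (Acot11 and Acot1) were past the threshold, against 9.15% of all genes, and 1 did not overlap, against 2.93%, from which nothing is read.

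**Figure D3:**
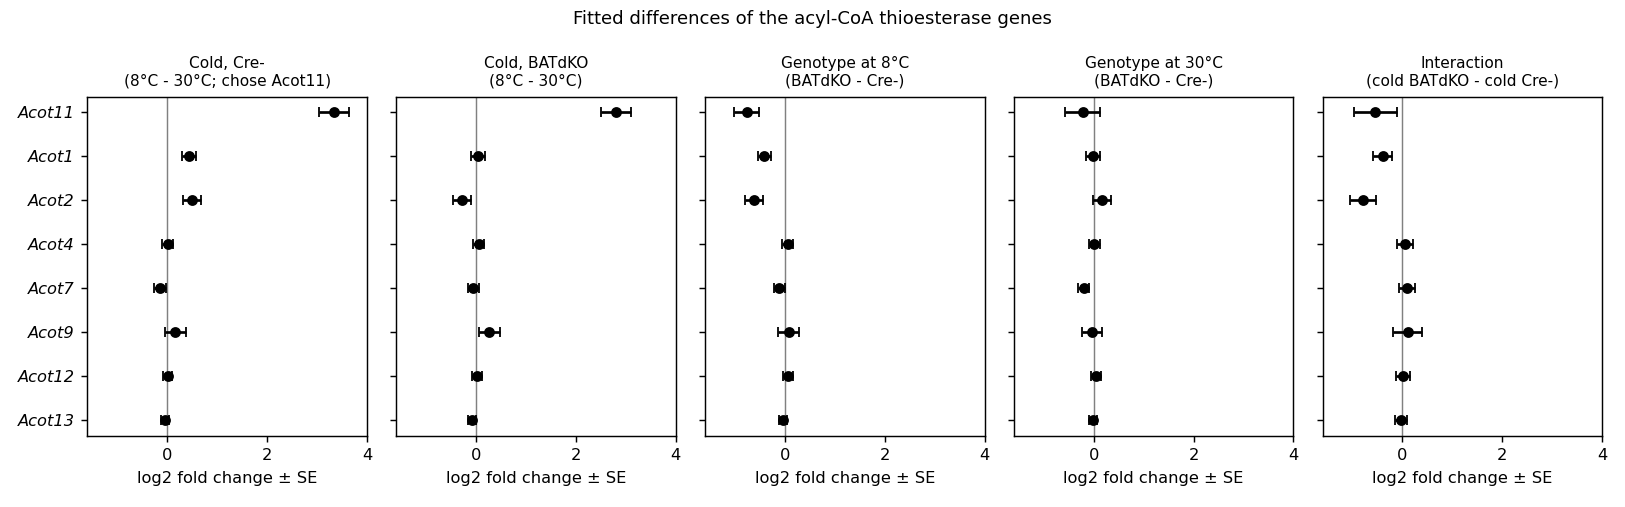
Fitted log2 fold changes of the 8 genes in 5 comparisons (points, with bars of 1 SE from edgeR). Acot11 stood at 3.35 and 2.81 in the cold, Acot11, Acot1 and Acot2 lay below 0 between the labels at 8°C (-0.76, -0.41 and -0.62), and the other 5 genes lay between -0.20 and 0.27 throughout.

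The remaining 5 genes passed the threshold in none of the comparisons. They are Acot4, a peroxisomal type I enzyme that acts on succinyl-CoA, Acot7, a cytosolic enzyme best known from brain, Acot9, a mitochondrial enzyme, Acot12, a cytosolic acetyl-CoA hydrolase best known from liver, and Acot13 (Them2), which is associated with mitochondria. Their log2 fold changes in the cold ranged from -0.08 to 0.27 in mice labelled BATdKO (SE 0.084 to 0.21) and from -0.15 to 0.16 in mice labelled Cre-. Between the labels they ranged from -0.11 to 0.07 at 8°C and from -0.20 to 0.05 at 30°C, with adjusted p from 0.553 to 1.0 in edgeR's tests of the BATdKO cold response, of the labels and of the interaction.

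Acot13 had the highest mean CPM of the 8 genes in each group. Its means were 133 ± 20.0 CPM in Cre- and 133 ± 7.97 CPM in BATdKO mice at 30°C, and 129 ± 13.4 and 126 ± 5.67 CPM at 8°C (SD, n = 6). Acot12, Acot4 and Acot7 formed a middle group, with overlapping ranges and group means of 20.2 to 21.5, 18.4 to 19.4 and 16.5 to 20.7 CPM. Acot9 was low, with group means of 4.67 to 6.09 CPM and a single count in Cre- mouse m4 at 30°C, and 19.5% of the 50-base stretches in the last 500 bases of its transcript also occur in Acot10. Because each transcript gives a tag near its 3′ end, these levels do not grow with transcript length and were set side by side on the CPM scale.

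With Acot12, Acot4 and Acot7 taken as a single middle group, the order of mean levels changed with temperature through Acot11. At 30°C it ran from Acot13 over Acot2 to the middle group, and Acot1, Acot11 and Acot9 overlapped at the bottom. At 8°C the mean of Acot11 stood between those of Acot2 and the middle group. Its range overlapped that of Acot2 under both labels. In mice labelled BATdKO it also overlapped the middle group (20.0 to 44.0 CPM, against 18.7 to 25.8 CPM for Acot12). As a share of the counts of the 8 genes together, Acot11 had a median of 2.09% at 30°C and 14.8% at 8°C in Cre- mice, and of 1.38% and 11.6% in BATdKO mice. Acot13 had a median of 49.0% and 36.7% in Cre- mice and of 47.5% and 43.7% in BATdKO mice, and Acot2 one of 22.9% and 26.9%, and of 25.8% and 21.4%. Shares within a sum move against each other, so the lower share of Acot13 in the cold stands beside overlapping CPM ranges. The summed level of the 8 genes was 271 ± 39.6 CPM at 30°C and 349 ± 37.7 CPM at 8°C in Cre- mice, and 279 ± 8.86 CPM and 288 ± 18.7 CPM in BATdKO mice (SD, n = 6).

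On GRCm38 (GENCODE vM21), Acot11 lies at chr4:106744555-106804998 on the minus strand, Acot7 at chr4:152178134-152271855, Acot4 at chr12:84038379-84048601, Acot12 at chr13:91741512-91786148 and Acot9 at chrX:155262443-155297654, all 4 on the plus strand, and Acot13 at chr13:24817948-24831540 on the minus strand. Exons of Acot11 share 1263 bases with Fam151a on the other strand, those of Acot4 share 615 with 4732463B04Rik and those of Acot12 share 149 with 4833422C13Rik. Acot4 also shares 33 exon bases with Gm49366 on the same strand. Whether reads were counted by strand was not given in the sources used here. Without strand, reads of partners on the other strand cannot be told apart. For Gm49366, strand does not part its reads from those of Acot4 in the shared bases.

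The genes whose pattern over the 24 mice was most like that of Acot11, by the root mean square difference of log2 CPM after each gene was centred on its own mean, were Ffar4 (0.704), Otop1 (0.758), 1700037H04Rik (0.765), Impa2 (0.778) and Ankrd9 (0.787). Ffar4 encodes a receptor for long-chain fatty acids and Otop1 a proton channel. Ffar4 was nearly undetected at 30°C, with 0 to 0.87 CPM, and had 0.92 to 12.4 CPM at 8°C. Otop1 had 0.41 to 13.7 CPM at 30°C and 9.71 to 43.3 CPM at 8°C, and Impa2, an inositol monophosphatase, 2.30 to 10.5 and 12.1 to 36.6 CPM. All 5 were picked for this likeness, so their rise in the cold is no separate result.

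**Figure D4:**
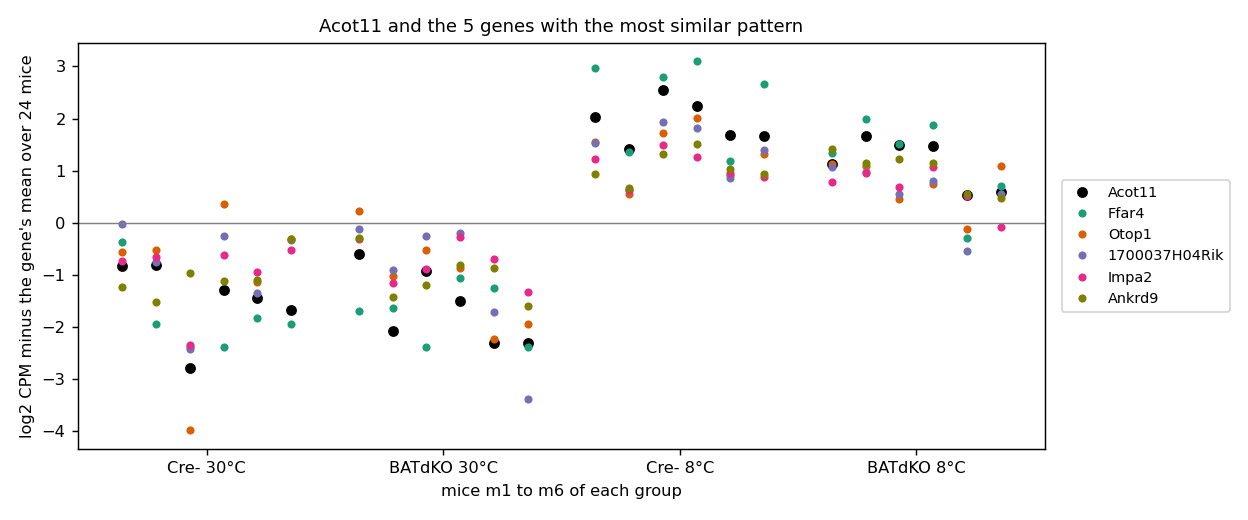
Log2 CPM of Acot11 and of the 5 genes most like it, each minus its own mean over the 24 mice, by group (points are mice m1 to m6 in label order). Acot11 lay below its mean in all 12 mice at 30°C and above it in all 12 at 8°C.

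The other genes that make, bind, use or break acyl-CoA were counted as 7 lists of 88 genes, of which 77 were tested. In the cold in mice labelled BATdKO, 13 of the 77 were called, all higher, against 7.07% of all genes, with a median log2 fold change of 0.12 against 0.00 over all genes (0.03 over the 8 thioesterases). In mice labelled Cre- 19 rose and 1 fell, against 9.15% of all genes, with a median of 0.10 against -0.02. The gene that fell was Enpp1, an ectonucleotide pyrophosphatase (-0.50, SE 0.17), named after its value was seen. The 2 comparisons share no mice. Without both m6 mice, 14 (13 higher and 1 lower) and 22 were called. The share of all genes called in that fit is not given here. Nothing is therefore read from the size of its counts, in all or per list.

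Of the 7 lists, mitochondrial fatty acid oxidation held the largest number of these calls, with 6 of 14 genes higher in the cold in mice labelled BATdKO and 8 of 14 in mice labelled Cre- (6 and 9 without both m6 mice). Slc25a20, the carrier of acylcarnitines into mitochondria, had 27.3 to 58.9 CPM at 30°C and 70.9 to 117 CPM at 8°C in mice labelled BATdKO, without overlap (log2 fold change 0.98, SE 0.17). Cpt2, which turns acylcarnitines back into acyl-CoA, rose by 0.56 (SE 0.11). Abcd3, which brings acyl-CoA into peroxisomes, was the 1 of 15 peroxisomal genes called and rose by 0.38 (SE 0.069). Ppargc1a, a coactivator induced by cold, rose by 0.95 (SE 0.15), the 1 of 10 regulators called. Counts of 1 in 15 and 1 in 10 stand near the 7.07% of all genes, and nothing is read from them.

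Among the synthetases, which work against the thioesterases, 3 of 14 rose in the cold in mice labelled BATdKO, against 7.07% of all genes called. In mice labelled Cre- 4 of 14 rose, against 9.15%. Acsl5, which activates long-chain fatty acids, rose by 0.60 (SE 0.099) under the BATdKO label and by 0.90 (SE 0.10) under the Cre- label, and Acsf2 by 0.44 (SE 0.097) under the BATdKO label. Of the 12 genes of CoA synthesis and breakdown, 2 rose under the BATdKO label, against 7.07% of all genes called. Pank1, a pantothenate kinase that starts CoA synthesis, rose by 0.43 (SE 0.088), and Slc25a42, the mitochondrial CoA carrier, by 1.28 (SE 0.30). None of the 5 acyl-CoA binding proteins was called in either cold comparison by edgeR, against 7.07% and 9.15% of all genes. At an unadjusted p under 0.05 there were 0 and 1, against 17.2% and 18.6% of all genes, and nothing is read from these counts. Acbd4 was called in mice labelled Cre- without both m6 mice.

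Between the labels at 8°C, 5 of the 77 genes were called, 4 lower and 1 higher under the BATdKO label, against 1.82% of all genes. Acsl5 had 116 to 165 CPM in BATdKO mice and 165 to 252 CPM in Cre- mice (log2 fold change -0.49, SE 0.099, adjusted p = 0.00679 from edgeR's test). Acsf3, a mitochondrial malonyl-CoA synthetase, had 12.2 to 17.1 and 17.2 to 24.9 CPM (-0.50, SE 0.11), and Pank3, another pantothenate kinase, 50.7 to 64.9 and 65.7 to 83.0 CPM (-0.45, SE 0.096), both without overlap. Slc27a1, a fatty acid transporter with synthetase activity that was named after its value was seen, differed by -1.03 (SE 0.24). Ncor1, the corepressor that TBL1 and TBLR1 bind, was higher under the BATdKO label by 0.29 (SE 0.074). At 30°C and in the interaction edgeR called 0 of the 77, and DESeq2 called 1 in each. At an unadjusted p under 0.05 in edgeR there were 6 and 7, against 10.4% and 8.05% of all genes. Without both m6 mice, edgeR called 5 at 30°C and 0 in the interaction. Those 2 libraries were picked after their Ucp1 and Tbl1xr1 were seen to stand apart from their groups at 30°C. Leaving them out can by itself widen the difference between the labels there. The share of all genes called in that fit is not given here, so nothing is read from its calls at 30°C. The 5 genes, named after they were called, were Acsl1, Acaa2, Decr1, Ncor1 and Ppargc1a, of which 4 were higher and 1 lower under the BATdKO label.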

How the data were processed

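BAT RNA libraries were made with a 3′ tag kit. Forward reads were trimmed (BBDuk) and mapped to GRCm38 (STAR) by the authors, who deposited unnormalized gene counts from Rsubread. The table holds 12615 genes, and 12608 identifiers matched a symbol. The annotation release and the strand setting were not given in the sources used here. The study removed outliers that it does not name, so all 24 libraries were used. A tag per transcript makes counts independent of transcript length, and genes with few counts in the shallowest library (699703 in total) are imprecise there.

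The deposited counts were fitted in R 4.3.3 with edgeR 4.0.16 and limma 3.58.1 (TMM, filterByExpr, a quasi-likelihood model with 1 mean for each of 4 groups, and Benjamini-Hochberg adjustment over 12485 genes, 130 being removed by the filter). The threshold was an adjusted p of 0.1. SE is the absolute log2 fold change over the square root of F. Log2 CPM used a prior count of 2. Mice are called m1 to m6 in label order. Where the labels do not say more, each library was taken as a separate mouse.

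The members and lists were chosen with earlier results of these data known. Genes named are the 8 members, Tbl1x, Tbl1xr1 and Ucp1, some marker genes, and the 5 genes most like Acot11. Named too are the 2 genes of smallest p past the threshold in each pathway list. These were taken in the cold in BATdKO, between labels at 8°C and in the interaction, with exceptions said beside them. Alternatives were DESeq2 1.42.0, RLE normalization, no filter on low counts, robust dispersion, only the groups compared, Acot1 and Acot2 summed, and each mouse left out. A fit without m6 of both 30°C groups was added after seeing the data. The edgeR step was tested on simulated data. Promoters are from RefSeq (GRCm38.p6), and gene positions and transcripts from GENCODE vM21.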

Additional observations from a re-analysis of the deposited data

Results flagged for a closer look

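Of 32 groups of 6 mice (8 genes in 4 groups), 2 held a mouse far from the others, where chance flags about 1 in 20. Acot2 in BATdKO mice at 8°C was lowest in mouse m6, at 40.1 CPM, with the next mouse at 59.0 CPM. Acot13 in BATdKO mice at 30°C was lowest in mouse m6, at 117.5 CPM, with the next at 133 CPM, and this is 1 of the 2 libraries whose Tbl1xr1 stood apart from its group.

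For Acot2, every BATdKO mouse at 8°C lay below the mean of the BATdKO mice at 30°C, on the log2 CPM scale. Every Cre- mouse at 8°C lay above the mean of the Cre- mice at 30°C for this gene. The difference between its mean changes was -0.93. The warm Cre- mean includes mouse m4, the lowest of its group at 27.3 CPM from a count of 20. The share of all genes with such a pattern is not given here, so nothing is read from it. The fitted interaction of Acot2 was -0.79 (SE 0.26, adjusted p = 0.383 from edgeR's test), which does not pass the threshold.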

How the results depend on the processing

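The rise of Acot11 in the cold in BATdKO mice was called under each of the 6 other settings, in all 24 fits that left out a mouse (2.68 to 3.06) and without m6 of both 30°C groups (2.69). The number of the 8 genes called between the labels at 8°C (0) changed to 1 with DESeq2 (Acot2), 3 with only the groups compared (Acot11, Acot1 and Acot2), 1 with Acot1 and Acot2 summed, and 2 without both m6 mice (Acot1 and Acot2). It was 0 to 1 with a mouse left out, the call being Acot2 without BATdKO m6 at 30°C, without Cre- m1, m3, m4 or m6 at 30°C, or without Cre- m4 at 8°C (adjusted p from 0.0605 to 0.0915 in edgeR). Acot2 was called in 6 of these 24 fits, and edgeR's adjusted p reached 0.277 in the others. In the cold in Cre- mice 1 to 3 were past the threshold with a mouse left out. Acot1 was no longer past it without Cre- m1 or m2 at 30°C or m4 or m6 at 8°C, and Acot2 was added without m6 of either BATdKO group, without Cre- m1 or m6 at 30°C or without Cre- m4 or m6 at 8°C. The number of pathway genes called between the labels at 30°C (0) was 1 with DESeq2, 5 without both m6 mice and 0 to 2 with a mouse left out (1 without BATdKO m6 and 2 without Cre- m6). In the interaction (0) it was 1 with DESeq2, 1 with robust dispersion and 0 to 1 with a mouse left out (1 without BATdKO m3 or m4 at 30°C or Cre- m2 at 8°C). For all of these the cause was not tested. The share of all genes called under each of these settings is not given here, so nothing is read from the size of these counts.

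Signs turned only for log2 fold changes close to 0. With Acot1 and Acot2 summed, that row differed from Acot1 alone, at -0.26 in the cold in BATdKO mice and 0.16 between the labels at 30°C. Without both m6 mice, Acot1 stood at -0.047 in the cold in BATdKO mice and, at 30°C, Acot1, Acot9 and Acot13 at 0.12, 0.11 and 0.054, while the interaction was -0.00090 for Acot4 and -0.035 for Acot9. With each mouse left out, the cold response in BATdKO mice ranged from -0.048 to 0.095 for Acot1 and from -0.047 to 0.052 for Acot12, and in Cre- mice from -0.082 to 0.073 for Acot4, from -0.045 to 0.055 for Acot12 and from -0.11 to 0.013 for Acot13. Between the labels at 8°C the range was -0.025 to 0.15 for Acot9 and -0.073 to 0.011 for Acot13, and at 30°C -0.073 to 0.070 for Acot1, -0.074 to 0.081 for Acot4, -0.16 to 0.089 for Acot9 and -0.064 to 0.057 for Acot13. For the interaction it was -0.027 to 0.14 for Acot4, -0.019 to 0.23 for Acot9, -0.056 to 0.053 for Acot12 and -0.099 to 0.022 for Acot13.

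No paired analysis was possible because the mouse numbers in the labels are unique to each mouse and shared by no groups. Depth limits Acot1, Acot9 and Acot11, which had 1 to 4 counts in Cre- mouse m4 at 30°C.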

Other observations

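Of 12 further thioesterase genes, 7 were tested. Acot3 and Acot6, of the cluster that holds Acot1 and Acot2 on chromosome 12, had group means of 8.25 to 8.98 CPM and 2.49 to 2.85 CPM. Them4, a thioesterase outside the Acot names, had 16.4 to 24.6 CPM at 30°C and 19.6 to 26.3 CPM at 8°C in Cre- mice (log2 fold change 0.28, SE 0.094, adjusted p = 0.0732 from edgeR's test), and was the 1 of the 7 called there, against 9.15% of all genes. Without m6 of both 30°C groups 0 of the 7 were called, in a fit whose share over all genes is not given here. In BATdKO mice edgeR called 0 of the 7 in the cold, against 7.07% of all genes. At an unadjusted p under 0.05 there were 0, against 17.2% of all genes.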
